A study of Mus musculus with 3 samples.

Results

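Retinoic acid is made from retinol (vitamin A) inside cells and acts there or in neighbouring cells through nuclear receptors. Rdh10 oxidises retinol to retinaldehyde, Aldh1a2 oxidises retinaldehyde to retinoic acid, Crabp1 and Crabp2 carry the acid inside the cell, and enzymes of the Cyp26 family degrade it. Receptors of the RAR family bind the acid and sit on DNA as pairs with a receptor of the RXR family. In the embryonic kidney, Aldh1a2 is known from stromal cells, and RAR signalling in this organ supports Ret expression in the branching ureteric bud.

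The 10 genes described here are Rdh10, Aldh1a2, Crabp1, Crabp2, Cyp26b1, Rara, Rarb, Rarg, Rxra and Rxrb, chosen by name out of 18193 genes named on the arrays. Every probe set annotated to 1 of these symbols alone was taken, which gave 14 of 45037 probe sets without controls. All samples were sorted cap mesenchyme, the nephron progenitors around the ureteric tips, from CD-1 mouse embryonic kidneys at E15.5 (Theiler stage 23). For every sample the labels give trypsin for 5 minutes at 37 °C and a 70 micron mesh. The part of this shared handling in the signals was not tested. All carried the transgene Tg(Six2-EGFP/cre)1Amc, in which regulatory sequence of Six2 drives a fusion of a green fluorescent protein and Cre recombinase. The single group held 3 pools, each of about 5 to 10 kidneys from embryos of unrecorded sex, with 1 array per pool. Because the labels name no separate litters, p-values reach no further than the spread between these 3 pools. In limma the variance of each probe set is also drawn towards that of probe sets of similar signal. The SEs, intervals and p-values below are of this moderated kind. No second population was measured, so each signal was set against a background level, the 95th percentile of 150 probe sets for sensory receptor, hair and defensin genes on the same array. Calls above background came from limma (1 tail, Benjamini-Hochberg over all 45037 probe sets) at an adjusted p under 0.05. Distances from background are differences of log2(signal + 16), which understates those of weak signals. Probe sets differ in affinity, so the level of one gene was not ranked against that of another, and a signal below the level is not a measure of absence.

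Markers of cap mesenchyme were detected, and so were markers of stroma and of the early nephron. All 10 cap mesenchyme markers measured were above background, against 54.4% of all named genes, among them Six2 (8734, 5727 and 9255 in pools 1, 2 and 3) and Cited1 (770.2, 1009 and 853). Of 16 stromal markers 14 were also above background, including Foxd1 (7370, 7389 and 7938) and Pdgfrb (790.2, 818 and 803). Early nephron markers passed in 7 of 9 cases, with the defining markers Wnt4, Pax8 and Lhx1 among them, podocyte markers in 4 of 7, ureteric bud markers in 4 of 11, endothelial markers in 3 of 10 and macrophage markers in 1 of 7. Ret, the bud receptor gene named above, read 131, 136 and 150.2 and did not pass. The other defining bud markers, Wnt9b and Gata3, did not pass either. Nor did the measured defining markers of podocytes (Nphs1), endothelium (Pecam1 and Cdh5) and macrophages (Csf1r and C1qa). No marker of 8 for proximal tubule and of 7 for red cells passed limma's test, nor did any have an unadjusted p under 0.05 (0 and 0). In a sorted population, more cells of a type and more RNA per cell cannot be told apart, and the part that stromal cells had in the signals below was not tested.

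Transcripts of retinoic acid synthesis, of Crabp2 and of a receptor of each family were above background. Of the 10 genes 6 passed the test (Rdh10, Aldh1a2, Crabp2, Rarb, Rxra and Rxrb), against 54.4% of all named genes. The count is thus near the share over all genes, and the genes that passed are described one by one. Crabp1, Rara, Rarg and Cyp26b1 did not pass. By probe set, 8 of 14 passed, against 41.5% of all probe sets. The median distance from background was 2.53 for the 10 genes and 1.20 for all named genes, on the log2 scale.

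**Figure D1:**
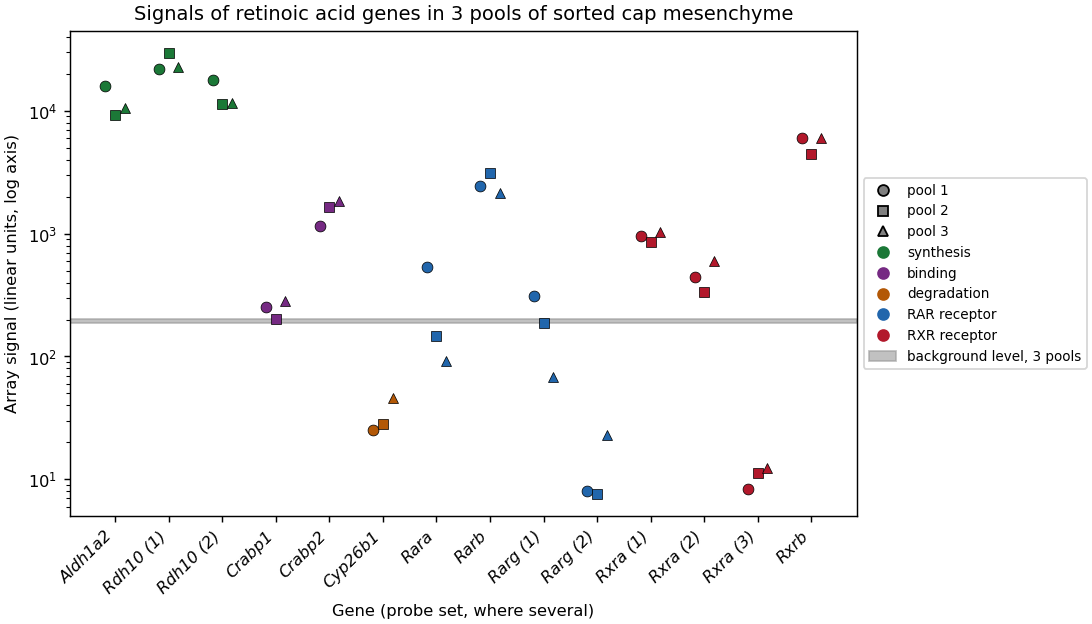
Signals (linear units on a log axis) of all 14 probe sets of the 10 genes, with 1 point per pool and colours by role; the grey band spans the background levels of the 3 pools. Both synthesis genes, Crabp2, Rarb, Rxrb and 2 of the 3 Rxra probe sets lie above the band in every pool, Crabp1 lies just over it, and Rara and Rarg (1) cross it.

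Both enzymes of the synthesis route were far above background. Aldh1a2, which carries out the final oxidation to retinoic acid, had signals of 15849, 9206 and 10478 in pools 1, 2 and 3, against background levels of 197, 186 and 201. Pool 1 was the highest, 1.72-fold over pool 2 on the log2(signal + 16) scale. The mean lay 5.78 log2 units over background (SE 0.17, n = 3, adjusted p = 3.1e-08, limma). Of the 14 stromal markers above background, pool 1 was the highest for 4, pool 2 for 7 and pool 3 for 3. The same shares over all genes above background were 29.5%, 27.5% and 43.0%. The summed signal of all 16 stromal markers was 42562, 46580 and 38289 in pools 1, 2 and 3. That of all named genes was 5.90e+07, 6.67e+07 and 6.08e+07, so it too was the highest in pool 2. Such sums are weighted to the brightest genes. For the 14 stromal markers above background, the median deviation from the 3-pool mean was 0.06, 0.07 and -0.23 log2 units in pools 1, 2 and 3. By that measure pools 1 and 2 were nearly level. The same medians over all genes above background were -0.04, -0.02 and 0.06. The part of stromal cells in the difference between pools was not tested.

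Rdh10, which starts the route by oxidising retinol, was read by 2 probe sets, and both passed. The first read 21769, 29407 and 22757 in pools 1, 2 and 3, which was 6.86 log2 units over background (SE 0.16, n = 3, adjusted p = 1.6e-08, limma). The second read 17696, 11382 and 11572, which was 5.98 log2 units over background (SE 0.16, n = 3, adjusted p = 2.3e-08, limma). The pools did not keep their order between the probe sets, since pool 2 was the highest on the first and the lowest on the second. The highest pool was 1.35-fold over the lowest on the first and 1.55-fold on the second, so the order of pools did not repeat within the gene.

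Of the binding protein genes, Crabp2 passed the test and Crabp1 did not. Crabp2, whose protein delivers retinoic acid to RAR in the nucleus, had signals of 1144, 1663 and 1856 in pools 1, 2 and 3. Its mean was 2.87 log2 units over background (SE 0.17, n = 3, adjusted p = 1.8e-06, limma). Crabp1, whose protein holds retinoic acid in the cytoplasm, read 251, 201 and 281, against background levels of 197, 186 and 201. It was over that level in all 3 pools but by little, and it did not pass (0.30 log2 units, 95% confidence interval -0.33 to 0.92, adjusted p = 0.33, limma, n = 3).

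The degrading enzyme measured among the 10 genes was at low signal. Cyp26b1, which hydroxylates retinoic acid and thereby clears it, read 25.4, 28.4 and 45.8 in pools 1, 2 and 3. All pools were under the background level, and the mean lay at -2.12 log2 units from it (95% confidence interval -2.83 to -1.40, adjusted p = 1, limma, n = 3). Its single probe set gives no second reading of the gene.

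Among the RAR genes, Rarb alone passed the test. Rarb, which is itself a well known target of retinoic acid, read 2452, 3128 and 2145 in pools 1, 2 and 3. It lay 3.61 log2 units over background (SE 0.16, n = 3, adjusted p = 2.5e-07, limma), and its highest pool was 1.45-fold over its lowest. Rara, the RAR gene known for broad expression, read 539.8, 148 and 91.3, so that pool 1 lay above the background level and pools 2 and 3 below it. Its mean was 0.02 log2 units from background (95% confidence interval -1.10 to 1.15, adjusted p = 0.97, limma, n = 3). Rarg, known from cartilage and skin, read 312, 188 and 67.9 on its brighter probe set (-0.24 log2 units, 95% confidence interval -1.28 to 0.79, adjusted p = 1, limma, n = 3) and 7.96, 7.61 and 22.9 on the other. The intervals of Rara and Rarg reach about 1 log2 unit either way (SE 0.47 and 0.44), wider than those of the genes that passed. Their own SDs between pools were 1.23 and 1.00 log2 units, so these moderated intervals are narrower than the 3 pools alone would give. Neither presence nor absence can be read from them.

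Both RXR genes measured here passed. Rxrb, which encodes a broadly expressed RXR, read 6044, 4451 and 6001 in pools 1, 2 and 3, which was 4.70 log2 units over background (SE 0.13, n = 3, adjusted p = 2.4e-08, limma). Rxra, the RXR gene that mouse heart development requires, read 949, 859.9 and 1024 on its brightest probe set (2.19 log2 units, SE 0.15, n = 3, adjusted p = 3.6e-06, limma). A second Rxra probe set passed at 443, 332 and 597 (1.13 log2 units, SE 0.22, adjusted p = 0.0022, limma, n = 3), and the third read 8.32, 11.3 and 12.4. Pool 2 was the lowest on both probe sets of Rxra that passed and on that of Rxrb. Rxra was 1 of 3 genes here with several probe sets and the 1 with readings on both sides of the call, against 46.3% of all genes with several probe sets. With its 3 probe sets averaged, Rxra no longer passed (0.11 log2 units, adjusted p = 0.59, limma).

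The Rarb promoter is shown because it holds the direct repeat through which RAR and RXR are known to act on this gene. RefSeq windows from 250 bases before to 50 bases after a transcript start (build GRCm38.p6) were available for 8 of the 10 genes, 14 windows in all. They were searched on both strands for the receptor hexamers AGGTCA or AGTTCA or GGGTCA or GGTTCA, alone and as direct repeats of any of them with 1, 2 or 5 bases between. The 250 bases before the start of Rarb (chr14:16575477-16575726, minus strand) are printed below beside those of Cyp26a1 (chr19:37697558-37697807, plus strand), another retinoic acid target gene. Capitals mark the hexamers of the repeat, and each line runs 5′ to 3′ on the strand of its gene.
Rarb: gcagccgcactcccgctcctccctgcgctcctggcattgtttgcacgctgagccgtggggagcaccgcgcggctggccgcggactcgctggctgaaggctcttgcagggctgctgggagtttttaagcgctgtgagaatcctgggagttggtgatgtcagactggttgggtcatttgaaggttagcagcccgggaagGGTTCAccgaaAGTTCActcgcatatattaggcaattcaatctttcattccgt
Cyp26a1: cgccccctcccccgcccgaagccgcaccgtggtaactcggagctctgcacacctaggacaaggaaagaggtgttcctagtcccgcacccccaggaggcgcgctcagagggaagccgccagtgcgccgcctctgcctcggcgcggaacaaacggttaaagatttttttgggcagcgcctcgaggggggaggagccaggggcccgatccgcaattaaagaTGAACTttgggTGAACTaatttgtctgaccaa

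In Rarb the repeat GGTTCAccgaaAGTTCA lies at positions -53 to -37 from the start, on the strand of the gene. In Cyp26a1 the repeat lies at -32 to -16 and reads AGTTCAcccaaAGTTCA on the opposite strand. Such a repeat spaced by 5 was found in 32 of 32851 windows (0.0974%). Single hexamers are common, being in 43.7% of all windows, and 5 of the 14 windows held one, those of Rarb, Rarg, Rxra and 2 of the 4 of Rara. None of the 14 windows held a repeat with 1 or 2 bases between, which occurred in 0.222% and 0.268% of all windows. The 2 genes with the repeat read differently on the arrays. Rarb was above background as given above, while Cyp26a1 read 40.1, 124 and 10.7 in pools 1, 2 and 3 and did not pass (-1.82 log2 units, adjusted p = 1, limma, n = 3). A match in these letters is a description of the window and not a measured binding site.

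**Figure D2:**
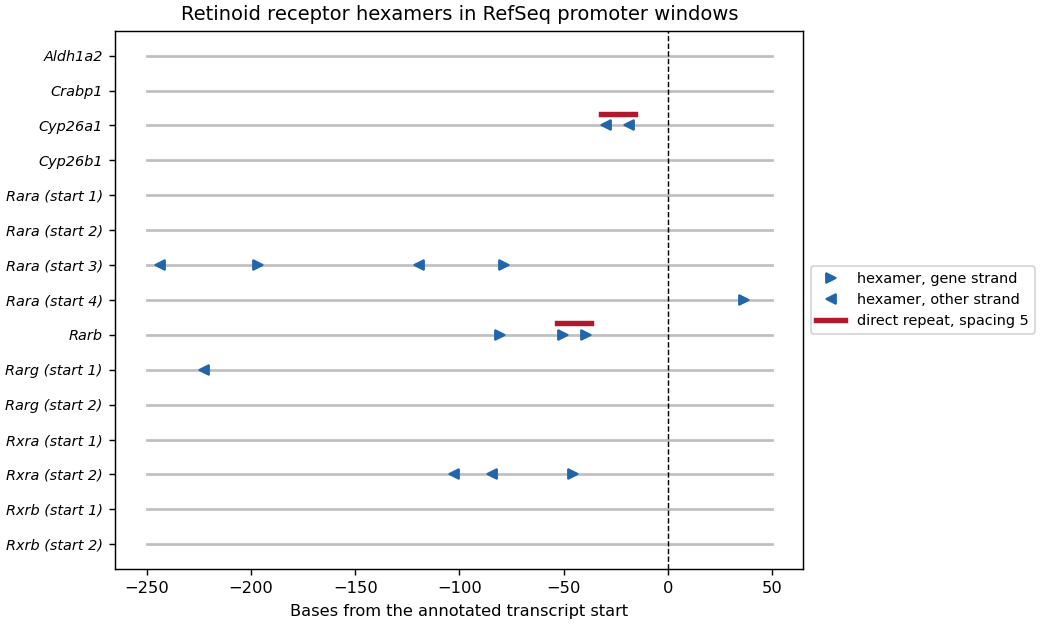
Receptor hexamers (arrowheads, pointing along the strand of the match) and direct repeats spaced by 5 bases (red bars) by distance in bases from each annotated transcript start, for the 14 windows of 8 genes and for Cyp26a1. Among these windows the red bar appears in Rarb, at -53 to -37, and in Cyp26a1, at -32 to -16.

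Beyond the 10 genes, the arrays read 41 of 47 other genes of retinoid metabolism, transport and reception, and 6 were not analysed here. Of the 41, 12 were above background (29.3%), against 54.4% of all named genes, with a median distance of -0.30 against 1.20 log2 units. The largest class on the list was that of enzymes that oxidise retinol or reduce retinaldehyde. In that class 9 of 17 passed (52.9%), a share near the 54.4% of all named genes, namely Adh1, Adh5, Akr1b8, Akr1b10, Dhrs3, Dhrs4, Rdh11, Rdh13 and Rdh14. Dhrs3, which turns retinaldehyde back into retinol and is induced by retinoic acid, read 1478, 1966 and 2041 in pools 1, 2 and 3 (3.12 log2 units, SE 0.15, n = 3, adjusted p = 4.6e-07, limma). Rdh11 read 1024, 1556 and 1597, and Rdh14, also a reductase of retinaldehyde, read 5648, 5292 and 5717. Adh5 (41833, 66056 and 47338) is better known as formaldehyde dehydrogenase. The retinol dehydrogenases Rdh1, Rdh5, Rdh7, Rdh9, Rdh12 and Rdh16 did not pass, and neither did Adh7 and Sdr16c5.

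No gene that the list of other retinoid genes classed under synthesis was called. Aldh1a1 read 7.42, 14.1 and 7.91 in pools 1, 2 and 3, under the background level in each. Aldh1a3 read 292, 327 and 260.1, over the background level in each pool, but did not pass (0.55 log2 units, 95% confidence interval -0.04 to 1.13, adjusted p = 0.073, limma, n = 3). Aldh1a7, a rodent gene closely similar in sequence to Aldh1a1, read 58.4, 615 and 656. Pool 1 stood below the background level and the other pools above it, and the gene did not pass (adjusted p = 0.40, limma). With Aldh8a1, this made 0 of 4 by limma, and 1 of 4, Aldh1a3, had an unadjusted p under 0.05.

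None of 9 genes of retinol binding and uptake passed limma's test, although 2, Rbp4 and Stra6, had an unadjusted p under 0.05. Stra6, the membrane receptor that takes up retinol from its plasma carrier, read 280.1, 332 and 272 (0.56 log2 units, adjusted p = 0.069, limma, n = 3). Rbp4, that plasma carrier, read 348, 252 and 295 (0.57 log2 units, adjusted p = 0.063, limma, n = 3). Lrp2, an endocytic receptor that also takes up Rbp4, read 336, 109.8 and 268 on its brightest probe set.

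The genes of retinyl ester metabolism passed in 2 of 5 cases, Dgat1 (2228, 1941 and 2552) and Lpl (5203, 5860.2 and 5658), both of which act mainly on triglycerides. Lrat, the enzyme that stores retinol as ester, read 21.1, 39.0 and 58.8 and did not pass. Fabp5, a fatty acid binding protein that can also carry retinoic acid to other nuclear receptors, read 57909, 84572 and 58786 (8.29 log2 units, SE 0.20, n = 3, adjusted p = 1.6e-08, limma). Neither carotenoid cleaving gene (Bco1 and Bco2), neither measured degradation gene (Cyp26a1 and Cyp2s1) nor Rxrg, the RXR gene known from muscle and retina, passed by limma. With no adjustment, p under 0.05 was reached by 0 of 2, 0 of 2 and 0 of 1.

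**Figure D3:**
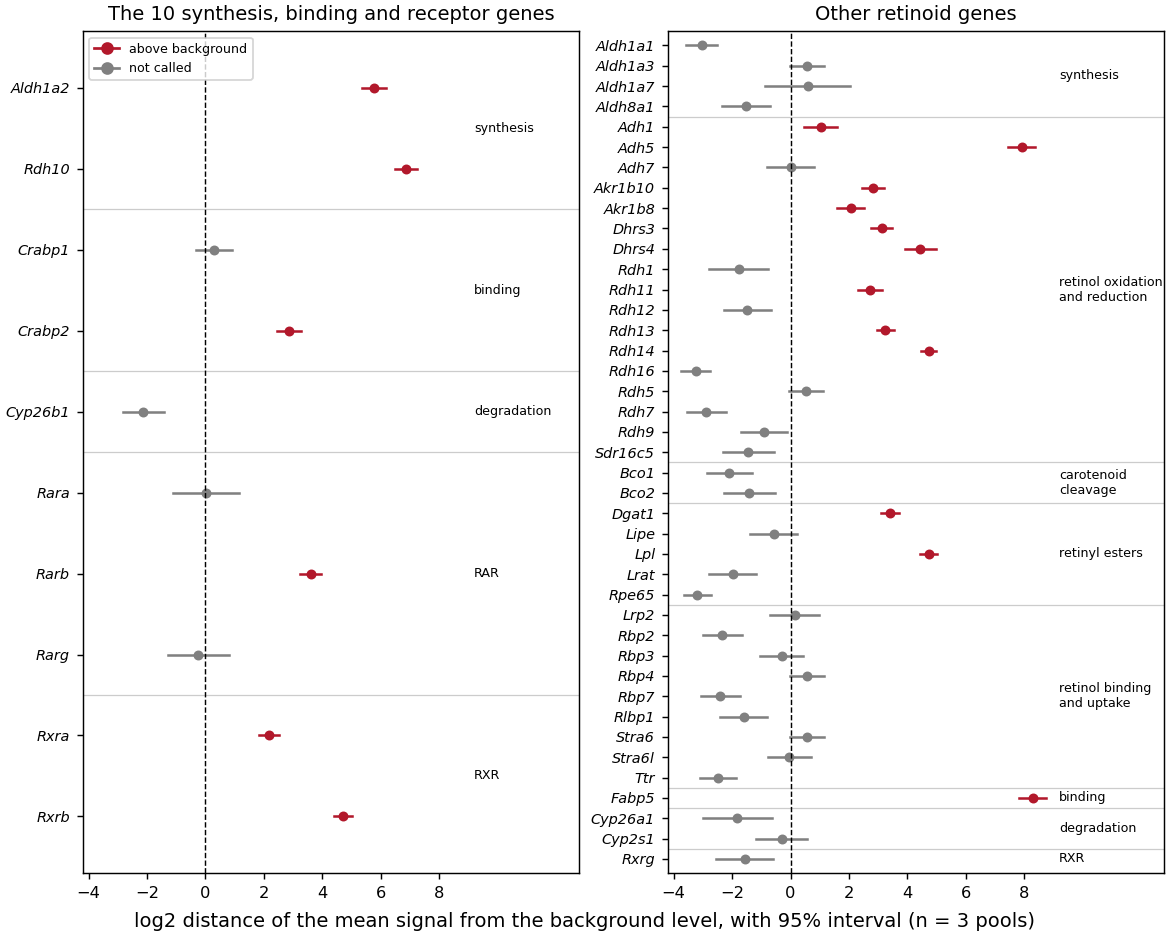
Distance of the mean log2(signal + 16) from the background level for the brightest probe set of each gene, with its 95% interval from limma (n = 3 pools), for the 10 genes on the left and 41 other retinoid genes on the right, ordered by role. Genes above background are red: 6 of 10 on the left and 12 of 41 on the right, none of them in the right panel's classes of synthesis, carotenoid cleavage, retinol binding and uptake, degradation or RXR.

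Nuclear coregulators of retinoid receptors were above background almost throughout, with 34 of 35 measured genes, against 54.4% of all named genes, and a median distance of 4.42 log2 units. The orphan receptor gene Nr2f2 read 19796, 18759 and 19908 in pools 1, 2 and 3. The acetyltransferase gene Crebbp read 15169, 15891 and 13128, and the histone methyltransferase gene Nsd1 read 9657, 9605 and 8642. Asxl1, Prmt2 and Smarca4 also had large moderated statistics, with 6.14, 5.69 and 6.31 log2 units over background. Trim16, Zfp423 and Gps2 passed with the smallest moderated statistics of the list, at 1.35, 1.90 and 0.98 log2 units over background. Zfp423, a zinc finger protein gene needed for retinoic acid responses in cell culture, read 1403, 531 and 605, with pool 1 the highest. Prame, which encodes a repressor of RAR in human tumour cells, did not pass at 113, 97.7 and 102.

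Genes known to respond to retinoic acid in at least some tissues passed in 20 of 41 cases (48.8%), against 54.4% of all named genes. This list holds 3 of the 10 genes, Crabp2, Rarb and Cyp26b1, of which Crabp2 and Rarb passed. The homeobox cofactor genes Meis2 (17091, 16507 and 16064) and Pbx3 (7207, 9375 and 8845) passed at 6.30 and 5.33 log2 units over background. Rai14 (5.69), Ccnd1 (5.96), Egr1 (8.22) and Dusp6 (6.61 log2 units) passed too. Of these, Egr1 is an immediate-early gene, Ccnd1 encodes a cyclin and Dusp6 is a target of FGF signalling, so they are under other controls as well. At the other end were Cyp26b1, Foxa1, Cdx1 and Tbx1. The gut and tailbud gene Cdx1 read 3.93, 16.1 and 5.17, and Tbx1, a gene of the pharyngeal arches, read 11.3, 11.7 and 7.0.

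Between pools, the spread of the 6 genes that passed was near that of all genes above background. Of the 6, 0 had pools at least 2-fold apart on the log2(signal + 16) scale, against 6.87% of all genes above background, a share that would come to less than 1 gene in 6. Their coefficients of variation ran from 8.68% for Rxra to 29.8% for Aldh1a2, with a median of 18.2%, against 16.2% over all genes above background. Their median log2 range was 0.49, against 0.44. Pool 1 was the highest for Aldh1a2 and Rxrb, pool 2 for Rdh10 and Rarb, and pool 3 for Crabp2 and Rxra. Over all genes above background, pools 1, 2 and 3 were the highest for 29.5%, 27.5% and 43.0%. Pool 1 was the lowest for 2 of the 6, pool 2 for 3 and pool 3 for 1, against 40.7%, 34.5% and 24.8% of all genes above background. Over all 10 genes, 2 had pools at least 2-fold apart, Rara and Rarg, neither of which passed. Some of their pools lay below the background level, so no fold or order of pools is read from them, and without pool 1 the log2 range of Rara was 0.61, against 2.37 with all pools.

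**Figure D4:**
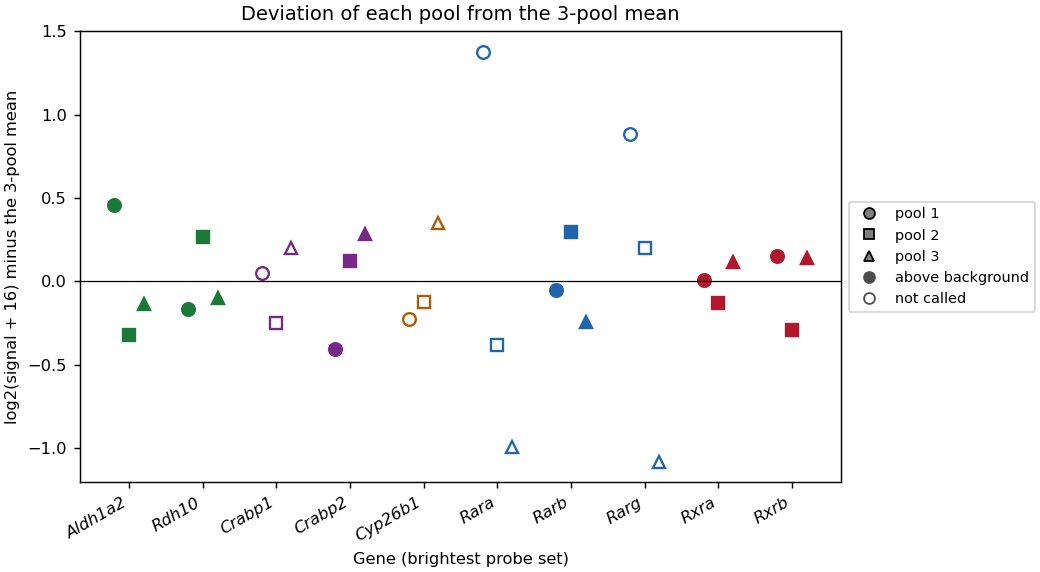
Deviation of each pool from the 3-pool mean of log2(signal + 16) for the brightest probe set of each of the 10 genes, with filled symbols for genes above background and open symbols for the others. Filled symbols stay within 0.46 of the mean in either direction, while Rara spans 1.38 to -1.0 and Rarg 0.88 to -1.08, partly from signals below the background level.

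Among the 12 other retinoid genes above background, pool 1 was the lowest for 9, against 40.7% of all genes above background, and the highest for 0 of 12, against 29.5%. Their median deviation in pool 1 was -0.23 log2 units, against -0.04 over all genes above background and -0.02 for the 6. Dhrs4, a reductase of retinaldehyde and other carbonyls, differed most among them, at 2868, 4932 and 6665 in pools 1, 2 and 3. The log2 ratio of the 3' to the 5' control probe set for actin was 1.82 in pool 1, 3.28 in pool 2 and 3.18 in pool 3, whereas for Gapdh it was 4.36, 5.05 and 4.08. Such ratios read how far the labelled RNA reached towards the 5' end, and their part in the differences between pools was not tested, and with 1 array per pool no difference between pools was tested.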

How the data were processed

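Per the submitters' processing notes the authors used GCOS, and what they deposited is a linear intensity for every probe set in each pool. Version and settings are not given in the sources used here. The labels' protocols describe 2 rounds of RNA amplification and a biotin label. On every array the trimmed mean is 1500, so the arrays were brought to a common trimmed mean before deposit. The summed signal of all named genes (brightest probe sets) still differed, at 5.90e+07, 6.67e+07 and 6.08e+07 in pools 1, 2 and 3. The platform annotation gave 34945 probe sets a single gene. The background level of an array (95th percentile of 150 probe sets) was taken from log2(signal + 16), and limma 3.58.1 under R 4.3.3 tested whether the mean of the 3 differences exceeded 0 (eBayes with an intensity trend). One called probe set sufficed for a gene, whose values are those of its brightest probe set. The test was checked on simulated data. Alternatives changed the pseudocount, percentile, normalization, trend, arrays, probe sets and filter on dim signals. The number of arrays limits precision. The 10 genes and all lists were chosen with earlier results of these data known. Named genes were the 10, the other retinoid genes, defining markers, and the 6 largest and 4 smallest moderated statistics in the coregulator and responsive lists.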

Additional observations from a re-analysis of the deposited data

How the results depend on the processing

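No paired analysis was possible because the 3 arrays form 1 group. Over 12 alternatives for each count, the genes above background among the 10 stayed at 6, except for 5 of 10 when all probe sets of a gene were averaged, where Rxra lost its call (0.11 log2 units, adjusted p = 0.59). Leaving out probe sets that may match several transcripts left 7 of the 10 genes to test, of which 6 passed. Without those probe sets, 9 of 36 other retinoid genes, 17 of 35 responsive genes and 29 of 31 coregulators passed. Of all named genes, 8447 of 16591 passed in that setting. Without dim probe sets the counts were 16 of 32, 21 of 34 and 34 of 35, against 10062 of 15207 named genes. In the other alternatives, which kept all genes, these list counts ranged from 11 to 16 of 41, 17 to 21 of 41 and 32 to 34 of 35. For all named genes the range there was 8382 to 10303 of 18193. Rdh10, Aldh1a2, Crabp2, Rarb and Rxrb passed in every alternative run. The weak genes changed sign without passing: Crabp1 fell to -0.83 log2 units at the 99th percentile of background, Rara to -0.0012 with a pseudocount of 1 and -1.11 at the 99th percentile, and Rarg reached 0.072 at the 90th percentile. With each pool left out in turn, Rara ranged from -0.66 (without pool 1) to 0.54 and Rarg from -0.68 to 0.32 (without pool 3). The count of genes with pools at least 2-fold apart was 2, but ranged from 1 to 2 with a pool left out, and was 1 with probe sets averaged and 0 without probe sets that may match several transcripts, where neither Rara nor Rarg could be measured. The causes of these shifts were not tested, beyond the fewer probe sets or arrays used.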

Other observations

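Of the 31 genes with a direct repeat of retinoid receptor hexamers spaced by 5 in a RefSeq promoter window, 11 had a probe set of their own on these arrays. This group was formed after the values were seen, and it was not tested. Rarb and Blvrb, the gene of a biliverdin reductase, were above background, which is 2 of 11 (18.2%), against 54.4% of all named genes. Blvrb read 651, 593 and 712 in pools 1, 2 and 3, while the embryonic globin gene Hbb-y, another of the 11, read 6.44, 3.82 and 6.41.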
